A study of Ovis aries and Bos taurus with 15 samples.

Results

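The receptors described here are the peroxisome proliferator-activated receptors PPARG, PPARA and PPARD and the retinoid X receptors RXRA and RXRB. They are 5 of the 9155 genes named on the array. All probe sets whose platform annotation gave exactly 1 gene symbol, one of these 5, were taken, which gave 8 of the 24016 probe sets tested: 1 for PPARG, 2 for PPARA, 3 for PPARD, 1 for RXRA and 1 for RXRB. The array carries bovine probes, and 1 array was run per sample. Of the 3 groups of 5 arrays, the first was ovine PAEC, the pulmonary endothelial cells of the study's title, given the antagonist GW9662 at 5 µM for 24 h. The second was ovine PAEC given the DMSO vehicle for the same time, and the third was bovine control cells labelled BAEC, for which the labels name no vehicle or treatment. All groups were grown in DMEM with 10% FBS. The labels name no animal, passage or clone, and nothing says that the replicates were separate cultures, so the p-values measure only the spread between these samples, which may be technical. RNA came from whole cultures, in which fewer cells of a type and less RNA per cell cannot be told apart.

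PPARs are nuclear receptors switched on by fatty acids and their derivatives. Each binds DNA as a pair with an RXR, so both partners must be present for a target gene to respond, and coactivators and corepressors exchange on the pair when a ligand binds. PPARγ, the product of PPARG, drives lipid storage in fat cells and restrains inflammation in endothelium. PPARα, from PPARA, drives fatty acid oxidation in liver and muscle, and PPARδ, from PPARD, does so in many tissues. GW9662 binds PPARγ covalently and blocks its ligand pocket.

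The values are log2 expression made by RMA, with array medians from 3.18 to 3.27. A group mean under 3 is called near the array floor here, because 45.9% of all probe sets averaged less than 3 over the 15 arrays and the files hold no detection call. A value near the floor cannot be told from no expression, and in the ovine groups a sheep transcript that binds the bovine probes weakly cannot be told apart from a low level. Of 14 endothelial markers measured, 12 in GW9662 cells, 11 in vehicle cells and 13 in bovine cells averaged 3 or more, but VWF was near the floor in every group, CLDN5 in both ovine groups and KDR in the vehicle group. All 3 adipocyte markers measured, ADIPOQ, LEP and CIDEC, were near the floor in every group. Vehicle replicate 1 was the array least like its own group.

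Only PPARD and RXRA were measured well above the floor. Among the 8 probe sets, 5 were near the floor in all 3 groups, and they included the single PPARG probe set and both PPARA probe sets. The remaining 3, one each of PPARD, RXRA and RXRB, had means of 3 or more in all 3 groups.

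**Figure D1:**
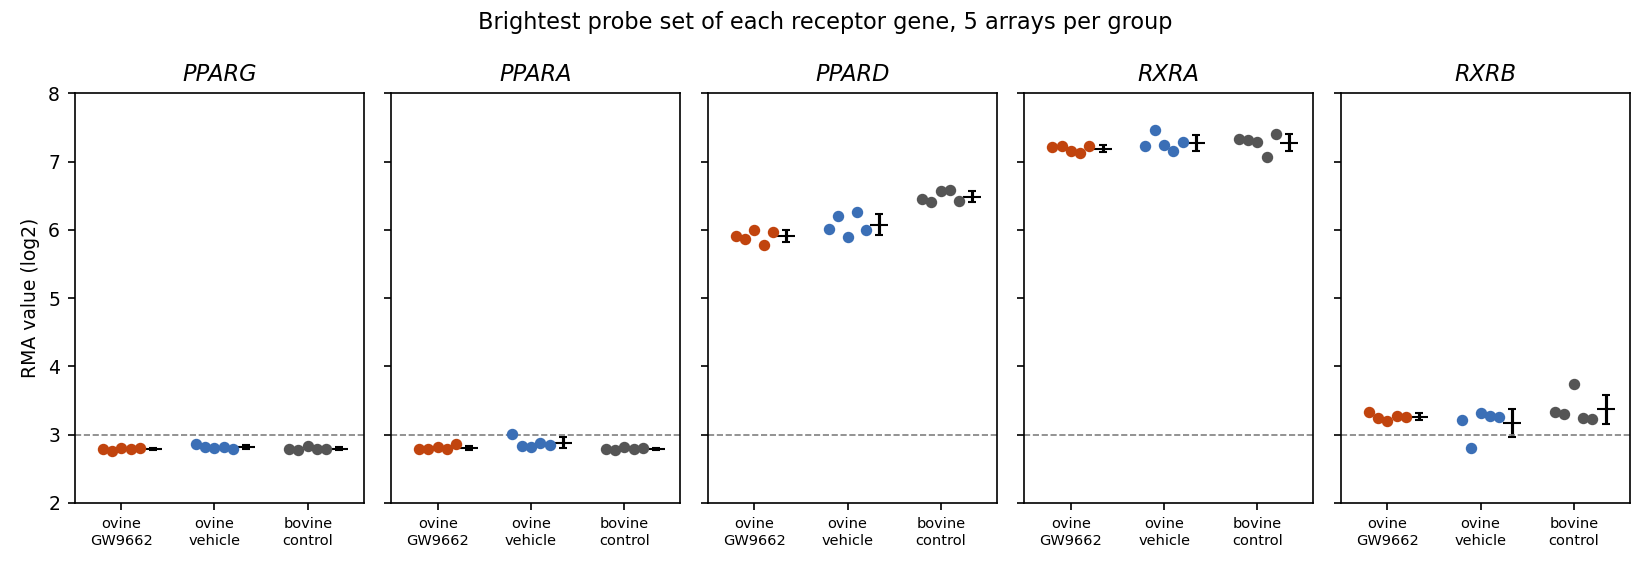
Log2 RMA value of the brightest probe set of each receptor gene on each array, in ovine GW9662, ovine vehicle and bovine control cells (5 points per group; bar, mean and SD; dashed line, the floor of 3). PPARG and PPARA lie near the line or under it, PPARD separates the bovine from the ovine arrays, and RXRA lies above 7 on every array.

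PPARG, the target of GW9662, read 2.79, 2.75, 2.81, 2.79 and 2.80 in GW9662 cells. It read 2.87, 2.82, 2.80, 2.82 and 2.79 in vehicle cells. The bovine values were 2.78, 2.78, 2.83, 2.79 and 2.79. All 15 values lay under 3 and the 3 groups overlapped. GW9662 minus vehicle gave a log2 difference of -0.031 (SE 0.0162, limma adjusted p = 0.268), vehicle minus bovine gave 0.027 (SE 0.0165, adjusted p = 0.191), and GW9662 minus bovine gave -0.0037 (SE 0.0129, adjusted p = 0.825). Without vehicle replicate 1 the first 2 differences were -0.019 and 0.015. Their sign turned when each array was centred on its median, to 0.012 and -0.0075, so no direction is given for PPARG.

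PPARA, the receptor of fatty acid oxidation in liver, was near the floor on both of its probe sets. On the brighter one GW9662 cells read 2.79, 2.80, 2.81, 2.79 and 2.86. Vehicle cells read 3.02, 2.84, 2.82, 2.88 and 2.84. Bovine cells read 2.79, 2.77, 2.81, 2.79 and 2.80. The highest of these 15 values came from vehicle replicate 1, and every vehicle array lay above every bovine array while the GW9662 group overlapped both. The log2 difference was -0.071 for GW9662 minus vehicle (SE 0.0364, adjusted p = 0.261) and 0.087 for vehicle minus bovine (SE 0.0349, adjusted p = 0.0680). Without vehicle replicate 1 the first difference was -0.037, and the second was 0.053 and passed (adjusted p = 0.0230).

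The dimmer PPARA probe set averaged 2.53 ± 0.0096 in GW9662 cells, 2.64 ± 0.196 in vehicle cells and 2.51 ± 0.00684 in bovine cells (SD, n = 5 each). The wide vehicle spread came from replicate 4, at 2.99 against 2.53 to 2.57 on the other 4 arrays. Its difference was -0.11 for GW9662 minus vehicle (SE 0.0836, adjusted p = 0.395), and -0.020 without that array. It was 0.13 for vehicle minus bovine (SE 0.0834, adjusted p = 0.212), and without that array 0.042, which passed (adjusted p = 0.0434). GW9662 minus bovine, at 0.022 (SE 0.00687), passed with an adjusted p of 0.0379, although both means lay under 3. That call held in 2 of the 10 fits that left out an array and in 1 of 7 other settings.

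PPARD was the one receptor gene with a clear difference, and it lay between the ovine groups and the bovine group. On its bright probe set GW9662 cells read 5.91, 5.87, 6.004, 5.77 and 5.96. Vehicle cells read 6.01, 6.21, 5.90, 6.26 and 5.999. Bovine cells read 6.46, 6.41, 6.56, 6.59 and 6.43. Each bovine array was above each ovine array of either group, while the ovine groups overlapped and vehicle replicates 1, 2 and 4 lay above all GW9662 arrays. Means were 5.905 ± 0.0893 with GW9662, 6.075 ± 0.153 with vehicle and 6.49 ± 0.0828 in bovine cells (SD, n = 5 each).

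Vehicle minus bovine was -0.41 for this PPARD probe set (SE 0.0738, 95% interval -0.58 to -0.25, adjusted p = 0.00247), a ratio of 0.750 in signal. GW9662 minus bovine was -0.58 (SE 0.0521, interval -0.70 to -0.47, adjusted p = 2.44e-05), a ratio of 0.667. These comparisons share the 5 bovine arrays. GW9662 minus vehicle was -0.17 (SE 0.0753, interval -0.34 to 0.00070, adjusted p = 0.234), which missed the threshold. In order of level PPARD stood at GW9662, vehicle and bovine cells from low to high, with the first neighbours not separated beyond their spread and the second separated.

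The vehicle minus bovine difference of PPARD kept its call in all 10 fits that left out an array, with values from -0.46 to -0.37. It lost the call when a covariate for RNA quality, the 3′ minus 5′ value of control transcripts, was added (-0.50, SE 0.207 against 0.0738 without the covariate, adjusted p = 0.256). That value, the log2 level of the 3′ probe set minus that of the 5′ one averaged over 6 transcripts on each array, was 0.956 ± 0.0741 in GW9662 cells, 1.18 ± 0.0846 in vehicle cells and 0.881 ± 0.0432 in bovine cells (SD, n = 5 each). It separated vehicle from both other groups without overlap (p = 0.00794 in a two-sided exact permutation test, which can go no lower with 5 arrays a group; adjusted p = 0.0119 over 3 comparisons). GW9662 and bovine cells overlapped in it (exact permutation p = 0.111), and there the PPARD difference held with the covariate (-0.62, adjusted p = 0.000155).

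Species, cell source and vehicle cannot be told apart in either comparison with bovine cells. GW9662 minus bovine also holds the antagonist. In both, weak binding of a sheep transcript to the bovine PPARD probes cannot be told apart from a lower level. The summed log2 level of 14 endothelial markers ran from 114 to 117 in GW9662 cells, 114 to 116 in vehicle cells and 121 to 123 in bovine cells. For vehicle minus bovine 7 of them were called lower and 3 higher (71.4%), beside 49.2% of all named genes. The 3 higher included VWF, which was near the floor. The summed level of 5 leukocyte markers was 16.2 to 16.9 in GW9662 cells, 16.5 to 16.8 in vehicle cells and 11.8 to 12.2 in bovine cells. PTPRC, CD3E, CD68 and CSF1R were near the floor in every group. The gap lay in CD14 alone, which averaged 6.72, 6.69 and 2.27 in the same order. That of 5 smooth muscle markers ran from 16.2 to 16.6, 16.3 to 16.7 and 18.2 to 19.0 in the same order, with ACTA2, MYH11, CNN1 and DES near the floor throughout. The part of these markers and of RNA quality in the PPARD difference was not tested.

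The other PPARD probe sets did not show that difference. One of them averaged 2.33 ± 0.00582 in GW9662 cells, 2.34 ± 0.0123 in vehicle cells and 2.32 ± 0.00876 in bovine cells (SD, n = 5 each). The remaining one averaged 2.07 ± 0.00316, 2.08 ± 0.00697 and 2.06 ± 0.00663 in the same groups. Both lay near the floor on every array, so they carry no measurement of PPARD, and the gene's difference rests on 1 probe set. For vehicle minus bovine they gave 0.024 (adjusted p = 0.0754) and 0.021 (adjusted p = 0.0707), in the opposite direction to the bright probe set. Both passed with a trended and robust variance (adjusted p = 0.0254 and 0.00531) and with all 15 arrays in one fit (0.0263 and 0.0206), and both turned negative when arrays were centred.

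RXRA, the partner that pairs with all PPARs, was bright on every array and passed in no comparison. GW9662 cells read 7.21, 7.24, 7.16, 7.13 and 7.23. Vehicle cells read 7.23, 7.46, 7.24, 7.16 and 7.29. Bovine cells read 7.33, 7.31, 7.29, 7.07 and 7.40. The groups overlapped in every pair, with bovine replicate 4 the lowest array of all and vehicle replicate 2 the highest. The difference was -0.084 for GW9662 minus vehicle (SE 0.0529, 95% interval -0.20 to 0.036, adjusted p = 0.316; -0.038 without vehicle replicate 2) and -0.0048 for vehicle minus bovine (SE 0.0717, interval -0.17 to 0.16, adjusted p = 0.959). GW9662 minus bovine was -0.089 (SE 0.0564, adjusted p = 0.234). Without bovine replicate 4 it was -0.14 and passed (adjusted p = 0.00880).

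RXRB, a further RXR found in most tissues, was dim. GW9662 cells read 3.33, 3.25, 3.20, 3.27 and 3.26 on its probe set. Vehicle cells read 3.22, 2.80, 3.31, 3.27 and 3.26. Bovine cells read 3.33, 3.30, 3.75, 3.24 and 3.23. The groups overlapped, and 2 arrays stood apart: vehicle replicate 2 was the lowest and bovine replicate 3 the highest. GW9662 minus vehicle was 0.092 (SE 0.0919, interval -0.12 to 0.30, adjusted p = 0.496), and -0.00090 without vehicle replicate 2. Vehicle minus bovine was -0.20 (SE 0.127, interval -0.49 to 0.088, adjusted p = 0.208), and -0.11 without either of these arrays alone. GW9662 minus bovine was -0.11 (SE 0.0939, adjusted p = 0.366), and -0.014 without bovine replicate 3.

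**Figure D2:**
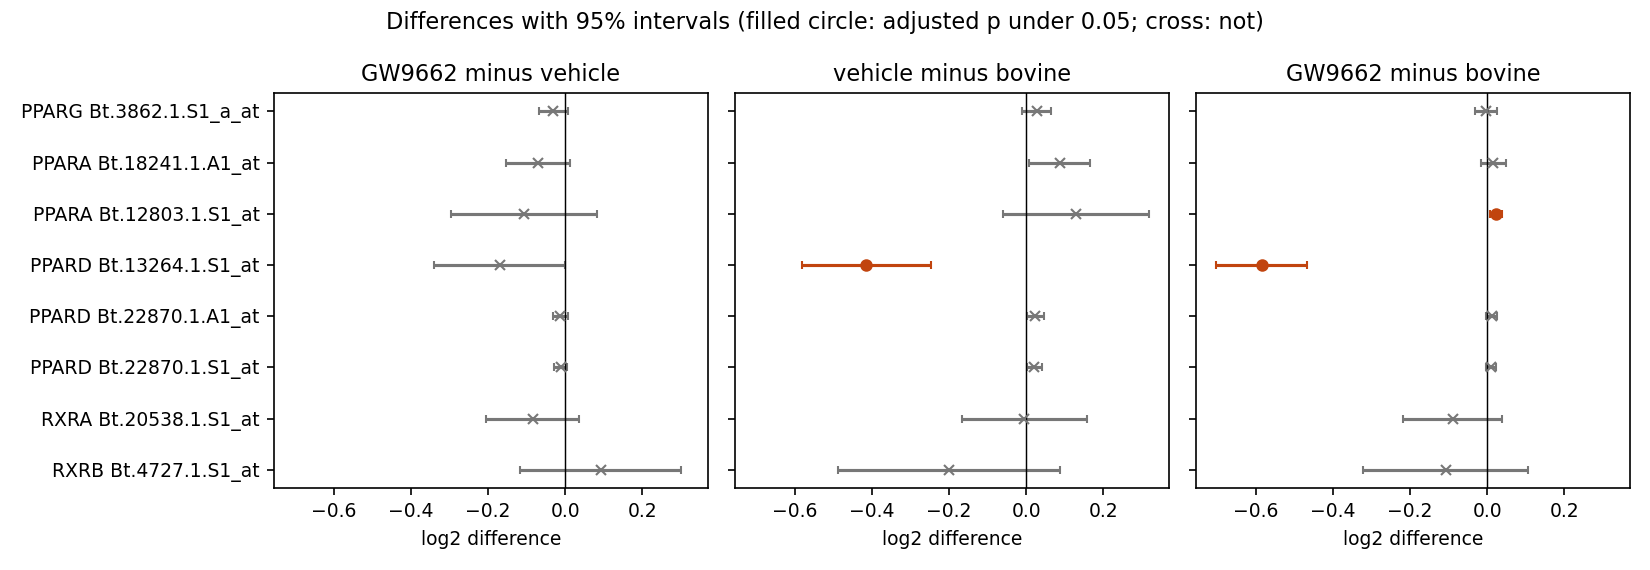
Log2 difference and 95% interval from limma for each of the 8 receptor probe sets in the 3 comparisons (filled circles, adjusted p under 0.05; crosses, not). The bright PPARD probe set lies left of 0 in both comparisons with bovine cells, and no probe set passes for GW9662 minus vehicle.

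Over the 8 probe sets, limma called 0 for GW9662 minus vehicle, where 0.183% of all probe sets were called. An unadjusted p under 0.05 was met by 0 of the 8 and by 5141 of all 24016. The 8 values were 7 negative and 1 positive, with a median of -0.051, against -0.016 over all probe sets tested. For vehicle minus bovine 1 of 8 was called, lower in vehicle cells, where the background was 45.2%. For GW9662 minus bovine 2 of 8 were called, PPARD lower and the dim PPARA probe set higher in GW9662 cells, against a background of 29.4%. With 8 probe sets, 5 of them near the floor, these counts are too few to set apart from those backgrounds, and no test was made. Of all probe sets with a mean under 3, limma called 37.1% for vehicle minus bovine and 3.51% for GW9662 minus bovine.

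Groups did not overlap in 1 of 8 receptor probe sets for GW9662 minus vehicle (14.6% of all probe sets), in 5 of 8 for vehicle minus bovine (53.0%) and in 2 of 8 for GW9662 minus bovine (33.9%). Most of these were near the floor, and the floor itself differed between groups. The median of the 11012 probe sets with a mean under 3 ran from 2.36 to 2.37 on GW9662 arrays, 2.37 to 2.42 on vehicle arrays and 2.35 to 2.36 on bovine arrays. Of those dim probe sets 87.2% were higher in vehicle than in bovine cells and 9.74% were higher in GW9662 than in vehicle cells. The 5 dim receptor probe sets had the same signs: all 5 were lower in GW9662 than in vehicle cells and higher in vehicle than in bovine cells. In the vehicle and bovine comparison 65.3% of dim probe sets did not overlap, and 4 of the 5 dim receptor probe sets did not.

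**Figure D3:**
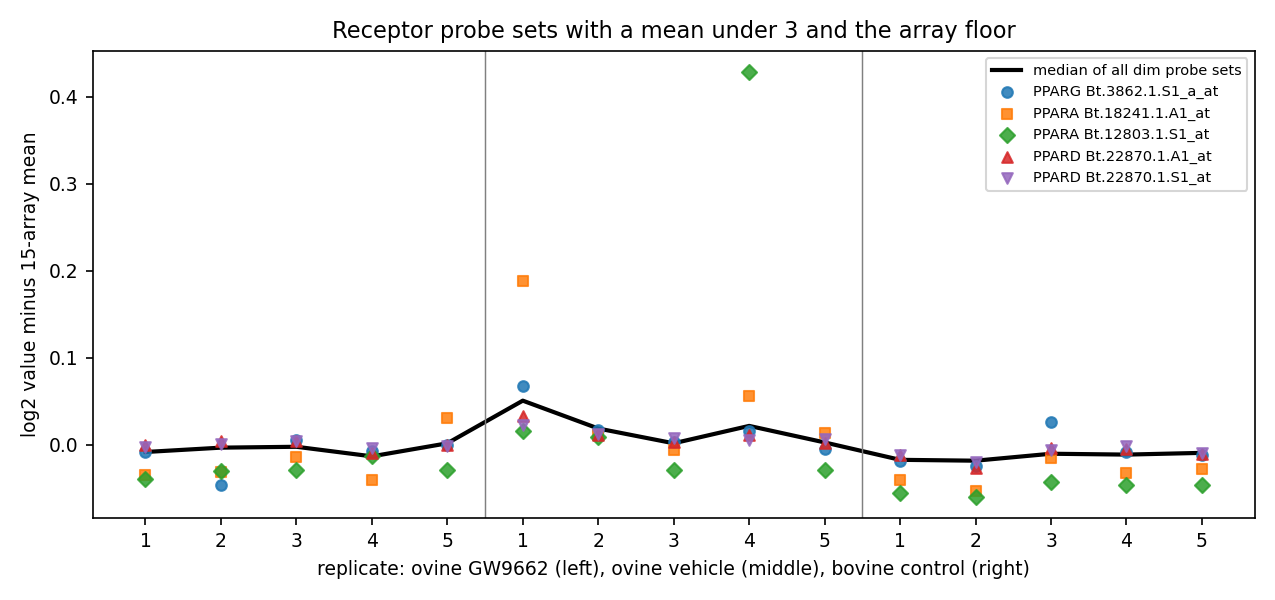
Log2 value minus its 15-array mean for the 5 receptor probe sets with a mean under 3 (markers), and the same for the median of all 11012 dim probe sets (black line), on each array of ovine GW9662, ovine vehicle and bovine control cells. The line and most markers are highest on vehicle replicate 1, and 1 PPARA probe set stands apart on vehicle replicate 4.

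Array by array, most dim receptor probe sets deviated from their group mean together with the floor. Over the 15 arrays, as a description across samples that share each array's scaling, the Pearson r with the mean of all dim probe sets was 0.720 for PPARG and 0.936 for the brighter PPARA probe set, and 0.475 and 0.817 without vehicle replicate 1. It was 0.820 and 0.677 for the dim PPARD probe sets (0.653 and 0.414 without that array), but 0.108 for the dimmer PPARA probe set (0.406 without it). Among the brighter probe sets it was 0.242 for PPARD, -0.012 for RXRA and -0.073 for RXRB, and without vehicle replicate 1 it was 0.628, 0.177 and -0.220. In all values without vehicle replicate 1, the group means still included that array, so its influence was not fully removed. These values therefore do not set dim and bright probe sets apart. PPARG and the brighter PPARA probe set had r = 0.772 with each other, while the bright PPARD probe set and RXRA had r = -0.110.

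The genes whose deviations were most like each measured receptor were picked from 6334 others of mean 3 or more, over the same 15 arrays, so their r values are large by choice. For PPARD they were IMMP2L, part of a peptidase of the inner mitochondrial membrane (r = 0.841), the protocadherin PCDH10 (0.795) and the calcium-binding protein S100B (0.789). For RXRA they were TWF2, a twinfilin that binds actin (0.861), the asparaginyl-tRNA synthetase NARS1 (0.836) and the cell cycle kinase CDK4 (0.812). For RXRB they were the immunoglobulin joining chain JCHAIN (0.906), RELL1 (0.845) and RIOX2, an oxygenase (0.834). Without the 2 arrays farthest from their group mean in the receptor, bovine replicate 3 and vehicle replicate 2 for RXRB, these 9 values lay between 0.601 and 0.774. The group means still included those 2 arrays, so these values cannot show whether the likeness holds free of them.

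The partners, coregulators and target genes of the receptors followed the same outline, with 0 called for GW9662 minus vehicle and many against bovine cells. Over all 9155 named genes limma called 20 for GW9662 minus vehicle (0.218%), so 0 called is no trait of these lists. There 703 genes were higher and 1140 lower at an unadjusted p under 0.05. Of 18 other receptors that pair with RXR or share its partners, 11 were measured. In limma 0 passed for GW9662 minus vehicle, and 1 had an unadjusted p under 0.05. NR2F1, an orphan receptor, was at 0.44 on the log2 scale (6.33 ± 0.300 against 5.89 ± 0.0891, SD, n = 5 each, adjusted p = 0.217), and its groups did not overlap. RXRG, the third RXR, was near the floor in all groups, at 2.03 in GW9662 cells and 2.09 in vehicle cells (difference -0.057, adjusted p = 0.278).

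Between vehicle and bovine cells 2 of those 11 partner receptors were higher in vehicle cells, 2 were lower and 7 missed the threshold (median difference 0.012). NR2F1 was higher in vehicle cells by 2.53 (5.89 against 3.36, SE 0.220, adjusted p = 2.48e-05) and its paralogue NR2F2, which sets venous identity, was lower, with a difference of -1.30 (5.81 against 7.11, SE 0.0789, adjusted p = 2.36e-06). A second NR2F2 probe set above the floor gave -0.91 (adjusted p = 0.0225), and one near the floor gave 0.042 (adjusted p = 0.0196). The orphan receptor NR4A2 was higher by 0.58 (SE 0.120, adjusted p = 0.00575), and the oxysterol receptor gene NR1H3 was at -0.24 with an adjusted p of 0.0498, a call kept in 3 of 10 fits that left out an array. NR2F2, NR2F1 and NR4A2 also passed for GW9662 minus bovine, at -1.42, 2.97 and 0.64, in a comparison that shares the bovine arrays.

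Of 20 coactivators 10 were measured. With GW9662 against vehicle 0 passed in limma, 2 had an unadjusted p under 0.05, and the median difference was 0.031. The acetyltransferase KAT2B was at 0.25 (8.97 against 8.72, adjusted p = 0.217), and PPARGC1A, the coactivator that names its receptor, was under 3 in both groups, at 2.77 in GW9662 cells and 2.86 in vehicle cells (adjusted p = 0.217). Set against bovine cells, vehicle cells had 3 coactivators higher and 4 lower, and 3 missed the threshold. CITED2, which binds the acetyltransferases EP300 and CREBBP, was higher by 1.68 (9.496 against 7.81, SE 0.0783, adjusted p = 3.74e-07). KAT5 was at -1.07 (SE 0.162, adjusted p = 0.000937), KAT2B at -0.68 (SE 0.0687, adjusted p = 6.57e-05) and NCOA4 at -0.21 (SE 0.0376, adjusted p = 0.00263), all lower in vehicle cells. GW9662 minus bovine, where 39.9% of all named genes were called, called 2 of the 10 higher and 4 lower, led by CITED2 at 1.81, KAT2B at -0.44, KAT5 at -0.83 and NCOA1, a coactivator of many nuclear receptors, at 0.76.

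Of 20 corepressors and negative regulators 13 were measured. With GW9662 against vehicle 0 passed in limma and 1 had an unadjusted p under 0.05. The median difference was 0.033, with the kinase MAPK3 at -0.22 (adjusted p = 0.218) and GPS2, a subunit of the NCOR complex, at 0.25 (adjusted p = 0.256). Vehicle cells had 8 of the 13 lower than bovine cells and 1 higher, and 4 missed the threshold. The median difference was -0.22, against 0.022 over all 9155 named genes. Those genes included 2820 with a mean under 3 over the 15 arrays, against 1 of the 13 here. Most dim probe sets were higher in vehicle than in bovine cells, so these medians do not come from like sets. With dim probe sets left out, limma called 2878 probe sets higher and 3708 lower in vehicle cells. TBL1X, another subunit of the NCOR complex, was at -0.93 (6.61 against 7.54, SE 0.0959, adjusted p = 7.91e-05). The deacetylase SIRT1 was at -0.97 (7.79 against 8.76, SE 0.129, adjusted p = 0.000416), GPS2 at -0.76 (SE 0.119, adjusted p = 0.00114) and HDAC2 at -0.71 (SE 0.163, adjusted p = 0.00989). Further HDAC2 probe sets gave -0.47 and 0.094 and a further GPS2 probe set -0.016, none past the threshold. GW9662 minus bovine called 7 of the 13 lower and 0 higher (53.8%, beside 39.9% of all named genes), led by TBL1X at -0.99, SIRT1 at -0.72, MAPK3 at -0.44 and HDAC2 at -0.45.

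Of 38 PPAR target genes 28 were measured, 10 of them with a mean under 3 over the 15 arrays. With GW9662 against vehicle 0 passed in limma, and 6 had an unadjusted p under 0.05, of which 3 were positive and 3 negative. The median difference was -0.011, against -0.015 over all named genes. ACSL1, which activates long-chain fatty acids, was at 0.13 (9.16 against 9.02, SE 0.0277, adjusted p = 0.123) with groups that did not overlap, and the oxidised LDL receptor OLR1 was at -0.14 (12.0 against 12.2, SE 0.0383, adjusted p = 0.212). The largest difference among the 28 was that of CD36, a fatty acid receptor named here for its size after its values were seen, at 0.79 (3.82 ± 0.338 against 3.03 ± 0.466, SD, n = 5 each, adjusted p = 0.217), with overlapping groups. Vehicle cells had 7 target genes higher and 7 lower than bovine cells, and 14 missed the threshold (median difference 0.017).

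SCD, the stearoyl-CoA desaturase, was the target gene with the smallest p for vehicle minus bovine, at -2.89 (8.52 ± 0.152 against 11.4 ± 0.0724, SD, n = 5 each, adjusted p = 5.54e-09). The lipid droplet protein PLIN2 was at -0.93 (adjusted p = 1.09e-05) and the fatty acid carrier FABP5 at -0.27 (adjusted p = 0.000177), with -1.02 on its second probe set. ANGPTL4, a secreted inhibitor of lipoprotein lipase, was higher by 1.62 (5.47 ± 0.153 against 3.85 ± 0.295, adjusted p = 2.42e-05). GW9662 minus bovine called 4 of the 28 higher and 5 lower (32.1%, beside 39.9% of all named genes), led by SCD at -2.90, SLC25A20, the carnitine carrier of mitochondria, at 1.01, PLIN2 at -0.79 and CD36 at 1.60. CD36 read 3.82 ± 0.338 with GW9662 against 2.22 ± 0.0136 in bovine cells, where it was near the floor, so its difference is a lower bound in signal.

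**Figure D4:**
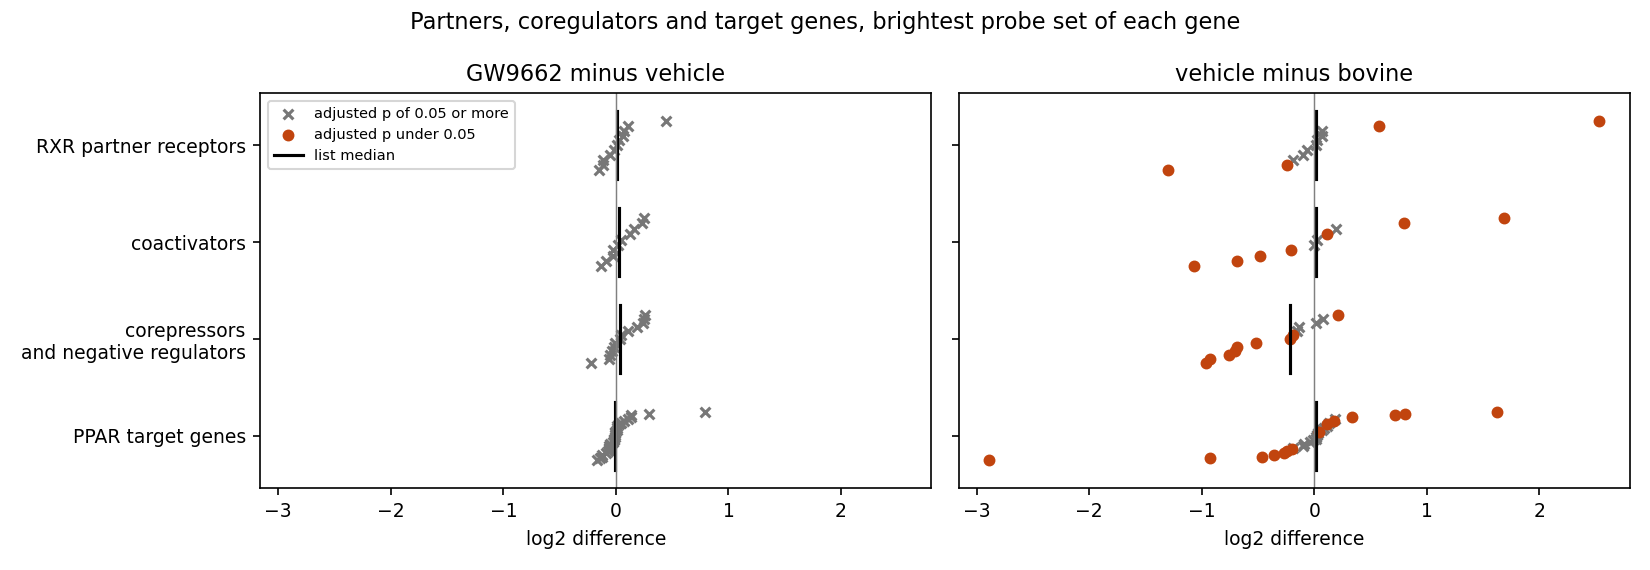
Log2 difference of each measured partner receptor, coactivator, corepressor and PPAR target gene (brightest probe set; filled circles, adjusted p under 0.05; crosses, not; black lines, list medians), for GW9662 minus vehicle and for vehicle minus bovine. No gene passes for GW9662 minus vehicle, whereas values for vehicle minus bovine spread from -2.89 for SCD to 2.53 for NR2F1.

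The share of list genes called between vehicle and bovine cells was 36.4% for partner receptors, 70.0% for coactivators, 69.2% for corepressors and 50.0% for target genes, beside 49.2% of all named genes. With the 3′ minus 5′ covariate the counts called were 1, 1, 0 and 3 genes. Over all 24016 probe sets the count called also fell, from 10860 to 1601. Of the genes named above for that comparison, NR2F2, CITED2, SCD, PLIN2 and ANGPTL4 kept their calls with the covariate. Several of those that lost them kept a large difference, such as NR2F1 at 2.09, TBL1X at -0.75, SIRT1 at -0.74 and HDAC2 at -0.99, while KAT5 was at -0.41 and FABP5 at -0.11.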

How the data were processed

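The deposited values are log2 expression per probe set. The submitters' processing notes name RMA as the authors' method, without a version, and background correction, quantile normalisation and probe summary belong to that method. Probe sets were named through the platform annotation supplied with the values. Leaving out 112 control probe sets left 24016, of which 13292 had 1 gene symbol, 86 several and 10638 none; the named ones covered 9155 genes. A list gene with several probe sets was represented by the one of highest mean. Each pair of groups was fitted on its own 10 arrays in R 4.3.3 with limma 3.58.1 (lmFit, eBayes), Benjamini-Hochberg adjusted over all 24016 with a threshold of 0.05, and adjusted p-values are limma's unless another test is named. The code was tested on simulated data. All receptor probe sets are given, with up to 4 called genes of smallest p per list and comparison, or 2 where none was called. Members and lists were chosen with earlier results of these data known. The number of arrays limits the precision. Alternatives were scaling, a filter on dim probe sets, variance models, array weights, all 15 arrays in one fit, a replicate block, an RNA quality covariate and leaving out each array. Receptor sequences were not used here.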

Additional observations from a re-analysis of the deposited data

Results flagged for a closer look

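In 4 of 27 sets of 5 arrays, 1 array lay far from the other 4 of its group by Dixon's criterion at the 95% level, which chance alone meets in about 1 of 20 sets. The dimmer PPARA probe set read 2.99 on vehicle replicate 4, with the next array at 2.57. RXRB read 2.80 on vehicle replicate 2, with the next at 3.22, and 3.75 on bovine replicate 3, with the next at 3.33. PPARG read 2.75 on GW9662 replicate 2, with the next at 2.79. Differences without the first 3 arrays are given with the receptors above. The cause was not tested.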

How the results depend on the processing

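No alternative called a receptor probe set for GW9662 minus vehicle, in up to 8 settings and 10 fits without an array. The bright PPARD probe set kept its direction in all of them and its call in both species comparisons, except with the 3′ minus 5′ covariate for vehicle minus bovine (-0.50, adjusted p = 0.256); leaving out an array gave -0.46 to -0.37 there, -0.61 to -0.55 for GW9662 minus bovine and -0.21 to -0.12 for GW9662 minus vehicle. Averaging the 3 PPARD probe sets gave levels of 3.44, 3.50 and 3.62 in GW9662, vehicle and bovine cells. The brighter PPARA probe set passed for vehicle minus bovine with array weights (0.054) and all 15 arrays (0.087), and ranged from 0.053 to 0.10 without an array.

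Signs near 0 turned with scaling, and none of these values passed unless stated. With centring, GW9662 minus vehicle turned to 0.012 for PPARG and to 0.030 and 0.031 for the dim PPARD probe sets, vehicle minus bovine to -0.0075, -0.011 and -0.013, and GW9662 minus bovine to 0.0043 for PPARG. With quantile normalisation the same probe sets turned to 0.011, 0.0094 and 0.0032 and to -0.020, -0.0062 and -0.0011, and RXRA for vehicle minus bovine to 0.072. With array weights that RXRA value was 0.015. With the covariate GW9662 minus vehicle turned to 0.026 for PPARG, 0.038 for PPARA, 0.00040 for the brighter of the dim PPARD probe sets, -0.022 for RXRB, -0.029 for GPS2 and 0.033 for RXRG, and vehicle minus bovine to -0.053 for PPARG, -0.10 for PPARA, -0.0083 for that PPARD probe set and 0.20 for NR1H3. Leaving out an array gave RXRA -0.057 to 0.025 for vehicle minus bovine and -0.14 to -0.059 for GW9662 minus bovine, RXRB -0.00090 to 0.13 for GW9662 minus vehicle, and PPARG -0.0079 to 0.0050 for GW9662 minus bovine. The cause was not tested.

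Limma called 44 probe sets for GW9662 minus vehicle (35 higher, 9 lower). Other settings gave 67 with centring (61 higher, 6 lower), 62 with quantile normalisation (38 higher, 24 lower), 76 without dim probe sets, 26 with a trended and robust variance, 237 with all 15 arrays, 0 with the covariate (1312 at an unadjusted p under 0.05) and 9 to 62 without an array, the lowest without vehicle replicate 5. For vehicle minus bovine the count was 10860 (7120 higher, 3740 lower), 6455 with centring (2715 higher, 3740 lower), 6802 with quantile normalisation (3578 higher, 3224 lower), 6586 without dim probe sets, 1601 with the covariate and 7335 to 10858 without an array. For GW9662 minus bovine it was 7052, and 5979 to 9926 over the settings. The RNA quality difference ran from -0.251 to -0.194, from 0.268 to 0.326 and from 0.0527 to 0.1004 in these 3 comparisons without an array, the last passing without GW9662 replicate 2 (exact permutation p = 0.0317).

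The replicate numbers showed no sign of pairing the samples: same-numbered arrays had r between -0.194 and 0.172 in deviations from the group means. The labels do not say whether the numbers mark pairs, and these r values cannot decide it. With the replicate block limma called 0 probe sets for GW9662 minus vehicle (3205 at an unadjusted p under 0.05) and 5396 for vehicle minus bovine, and PPARD stayed called in both species comparisons. With the block 8 PPAR target genes were called for vehicle minus bovine, and 14 without it. List counts and named list genes were run under the same settings, a choice made after the data were seen.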
